A study of Mus musculus with 15 samples.

Results

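The tricarboxylic acid (TCA) cycle enzymes of the mouse heart are described here through 9 genes, Cs, Idh2, Idh3a, Idh3b, Ogdh, Suclg1, Sucla2, Fh1 and Mdh2. They were chosen as named enzymes of the cycle, by gene symbol, and each symbol matched 1 gene of the 55401 in the deposited tables. RNA came from ventricles of 12-week-old male C57BL6 mice. The treated mice received isoproterenol, an agonist of β-adrenergic receptors, under the skin in a daily dose of 50 mg/kg over 4, 8 or 11 days, and the control mice received saline for a time that the labels do not give. The saline group held 4 hearts, the 4-day group 4, the 8-day group 3 and the 11-day group 4, each sequenced as 1 total RNA library and called by group and letter (4-day A). The labels give no genotype change, and the single saline group served as the control of all 3 times.

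The TCA cycle oxidizes the acetyl groups that come from fatty acids, glucose and ketone bodies, and passes the electrons to the respiratory chain as NADH and FADH2. Its enzymes sit in the mitochondrial matrix or inner membrane and are encoded by nuclear genes. The heart, which works without pause, runs this cycle at a high rate and is rich in these transcripts. The cycle starts with citrate synthase (Cs), oxidizes isocitrate and then 2-oxoglutarate (Idh3a, Idh3b, Ogdh), splits succinyl-CoA (Suclg1, Sucla2), and ends with fumarase (Fh1) and malate dehydrogenase (Mdh2). Idh2 uses NADP instead of NAD and also serves the mitochondrial supply of NADPH.

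Libraries held 25404162 to 117777005 expected counts, which are the read numbers that RSEM assigned to each gene. Between 47.48 and 58.39% of the counts fell on the mitochondrial genome, and this share moves every value that is scaled by the library total. In 8-day A, CT010467.1 and Lars2 together held 15.8% of all counts where no other library had more than 0.0917%, so each member's log2 fold change at 8 days is also given without it. All 12 cardiomyocyte markers examined were abundant, and their summed level lay between 67680 and 81510 CPM in every library. Most of this sum came from Ttn and Myh6, with means of 40370 and 18560 CPM over all libraries, so it says little about the other markers. CPM is a count scaled to the library total, here also with the TMM scaling described below. The atrial markers Myl7, Sln and Bmp10 had at most 14 counts in any library, and Myl4 had 11 to 84. Nppa, which ventricles also make under load, was higher at 4 and 8 days (log2 fold changes 3.85 and 2.57, edgeR adjusted p = 0.000698 and 0.0302). Fibroblast and macrophage markers differed between groups, and their values stand beside the results that follow. In whole-tissue RNA, fewer cells of a type and less RNA per cell cannot be told apart.

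Levels were compared as CPM scaled by TMM, a method that sets the libraries on a common scale from the bulk of their genes. By this measure the 9 members together were highest in the saline group. Their summed CPM was 3377, 2893, 3358 and 3752 in saline A, B, C and D. It was 2649, 2996, 2658 and 2758 in 4-day A, B, C and D. It was 2811, 2960 and 2852 in 8-day A, B and C, and 2943, 2805, 2661 and 2929 in 11-day A, B, C and D. Every group overlapped with saline, and the overlap came from saline B, the lowest of the saline libraries. The other 3 saline libraries lay above all 11 libraries of the isoproterenol groups. After the mitochondrial genome, CT010467.1 and Lars2 were left out of the total, the members made up 0.6325 to 0.741% of the counts in saline libraries. They made up 0.5849 to 0.6396% at 4 days, 0.6019 to 0.6252% at 8 days and 0.5692 to 0.6057% at 11 days.

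**Figure D1:**
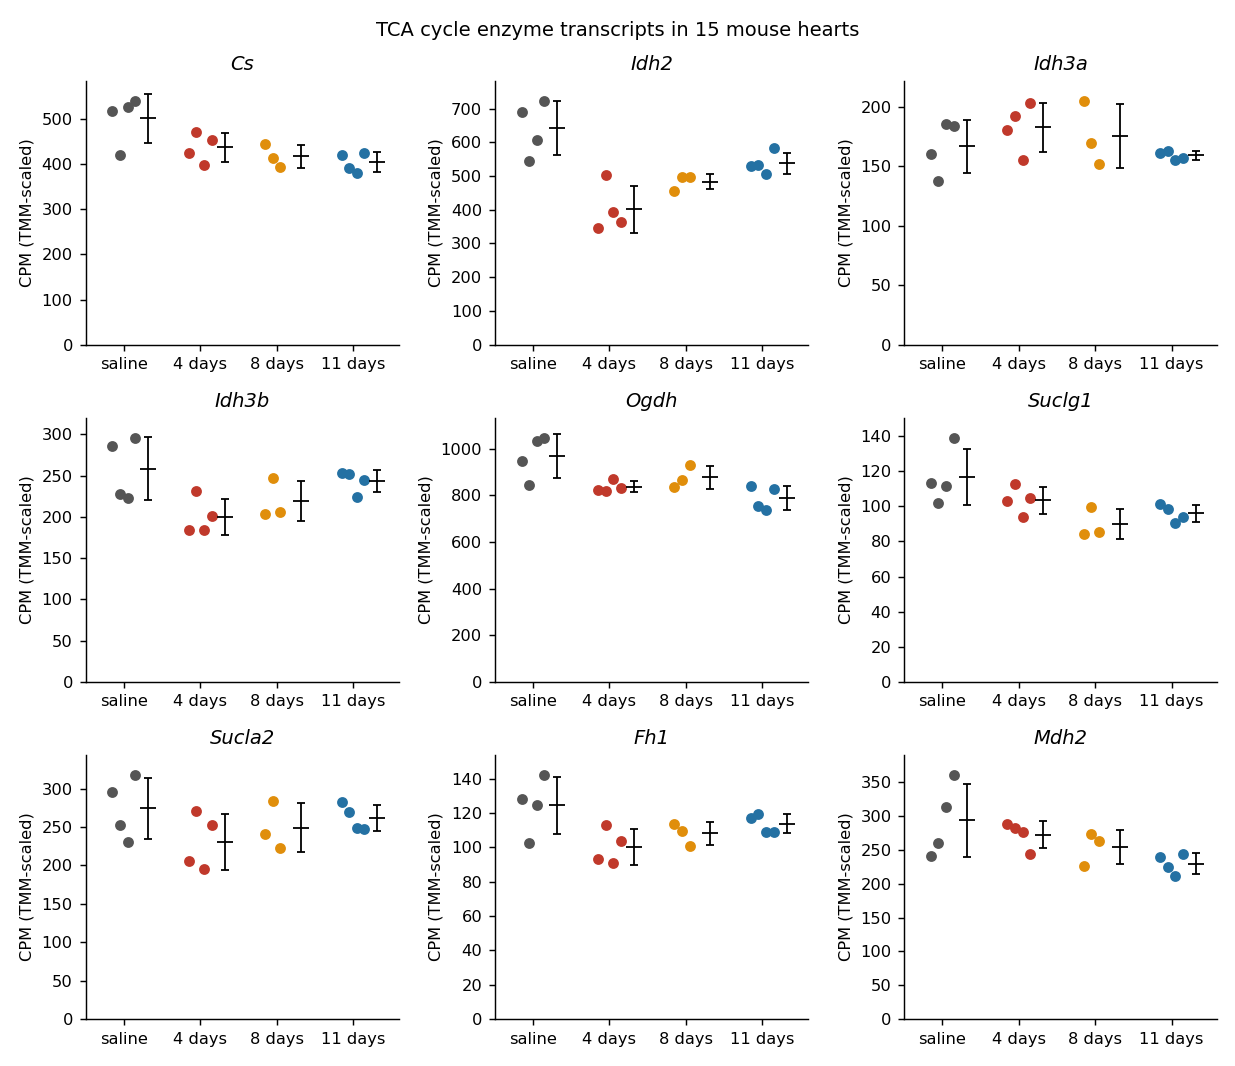
TMM-scaled CPM (vertical axes, from 0) of each member in the 15 hearts, by group, with 1 point per library and the group mean ± SD beside the points. Idh2 stands lowest at 4 days, at 346.6 to 501.6 CPM against 545.8 to 723.7 in saline, and Idh3a is the member whose mean was higher at 4 days than in saline.

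Per length of transcript, Idh2 was the most abundant member in the saline heart. Its FPKM, the deposited value relative to transcript length and library total, was 399 ± 34.1 (SD, n = 4). Mdh2 followed at 254 ± 33.6 FPKM, Ogdh at 245 ± 22.7 and Idh3b at 229 ± 24.5, and the saline ranges of neighbours within these 3 overlapped. Cs stood at 175 ± 18.0 FPKM and Sucla2 at 160 ± 17.2, again with overlapping ranges. Suclg1, Fh1 and Idh3a were the lowest, at 88.9 ± 5.94, 88.4 ± 6.19 and 86.3 ± 10.3 FPKM, and did not differ beyond their spread. The order therefore had 4 steps, with Idh2 apart from Mdh2, Idh3b apart from Cs, and Sucla2 apart from Suclg1.

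After 4 days of isoproterenol, 1 of the 9 members, Idh2, was lower than in saline and none was higher. After 8 and after 11 days no member passed the threshold in either direction. These calls used edgeR's quasi-likelihood test over all 26862 genes with at least 10 counts summed over the 15 libraries, with p-values adjusted by Benjamini-Hochberg and read at 0.05. Of all genes tested, 3.4% were called lower at 4 days, 1.2% at 8 days and 1.95% at 11 days, 6.05, 1.07 and 1.8% were called higher, and 9.46, 2.27 and 3.75% were called in either direction. At an unadjusted p under 0.05, edgeR counted 4 members at 4 days, 3 at 8 days and 5 at 11 days, all lower than saline. Of all 26862 genes, it counted 2475, 1743 and 2400 lower, and 22.2, 13 and 17.2% in either direction. DESeq2 called 3, 2 and 4 members lower at the 3 times, beside 4.76, 1.98 and 3.28% of all genes. Limma voom with quality weights called 3, 1 and 2 lower, beside 4.35, 1.34 and 2.22% of all genes. Without saline B, the saline library with the lowest summed level of the members, edgeR called 3, 2 and 4 members lower. That library was picked by the members' own level, and leaving it out raises their summed saline mean by construction. In the same fits edgeR called 2973, 912 and 1422 of all genes in either direction, against 2540, 610 and 1006 with every library. The numbers of all genes called lower without saline B are not given. The members that DESeq2 called were Idh2, Idh3b and Fh1 at 4 days, Idh2 and Suclg1 at 8 days, and Cs, Ogdh, Suclg1 and Mdh2 at 11 days.

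The direction of the members' changes was mostly downward but depended on the scaling. With TMM, 8, 8 and 9 of the 9 log2 fold changes were below 0 at 4, 8 and 11 days, while scaling by library size alone gave 4, 9 and 7 and FPKM gave 5, 9 and 7. Their median log2 fold change was -0.21 at 4 days, -0.21 at 8 days and -0.26 at 11 days, beside 0.0062, -0.013 and -0.010 over all genes tested. Over the 8540 genes with a mean of at least 5 CPM, the median was -0.032, -0.029 and 0.0034. Library size alone moved the median of all genes to 0.21 at 4 days and to -0.10 at 8 days, so every change here is relative to the TMM scale. With library sizes taken after leaving out the mitochondrial genome, CT010467.1 and Lars2, an alternative chosen after seeing the data, the numbers below 0 were again 8, 8 and 9. The comparisons of the 3 times share their saline libraries.

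**Figure D2:**
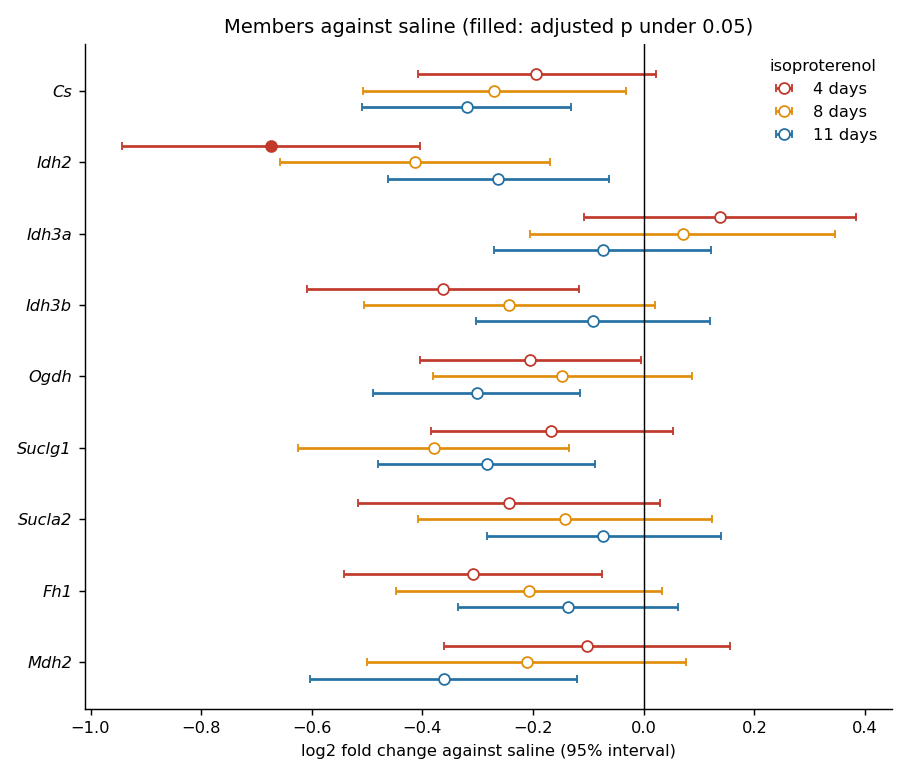
Log2 fold change against saline (horizontal axis) of each member at 4, 8 and 11 days, with its 95% interval from edgeR and a filled point where the adjusted p was under 0.05. The filled point is Idh2 at 4 days, at -0.67, and the points of Idh3a lie on either side of 0.

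Idh2, the NADP-dependent isocitrate dehydrogenase of mitochondria (chr7:80094846-80115392, minus strand, GRCm38), was the member with the lowest log2 fold change at 4 days. It stood at 689.8, 545.8, 608.2 and 723.7 CPM in saline A, B, C and D, and at 346.6, 501.6, 392.4 and 363.9 CPM in 4-day A, B, C and D. It stood at 456.5, 496.6 and 497.8 CPM in the 3 libraries at 8 days and at 530.6, 531.3, 505.8 and 582.3 CPM in the 4 libraries at 11 days. All 4-day and all 8-day libraries lay below all saline libraries, and the 11-day libraries overlapped with them. A group wholly below saline was found for 1 member at 4 days and for 2 members each at 8 and 11 days, and for 5.65, 5.97 and 4.77% of all genes tested. At 4 days Idh2 fell by 0.67 on the log2 scale, with an SE of 0.125 and an edgeR adjusted p of 0.00427, which left 0.627 of the saline level. The call kept its side of the threshold without any single library, at adjusted p = 0.000524 to 0.0199 from edgeR, and with library size alone (log2 fold change -0.47, 0.0127). On FPKM it was -0.46 with an adjusted p = 0.0571 from limma. At 8 days the log2 fold change was -0.41 (SE 0.113, edgeR adjusted p = 0.0835; -0.39 without 8-day A) and at 11 days -0.26 (SE 0.093, 0.152).

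Idh2 was also the member that edgeR called between times. Its level was higher at 11 than at 4 days by a log2 difference of 0.42 (SE 0.109, edgeR adjusted p = 0.0214, all 4 libraries at 11 days above all 4 at 4 days), where 5.28% of all genes were called lower, 2.83% higher and 8.11% in either direction. Leaving out 4-day A, 4-day C, 4-day D, 11-day B or 11-day D ended this call (adjusted p = 0.107, 0.0627, 0.0682, 0.0502 and 0.0746 from edgeR) and with library size alone (0.332). Between 11 and 4 days, 3 members had an unadjusted edgeR p under 0.05, 1 lower and 2 higher, beside 20.6% of all genes. Between 8 and 4 days edgeR called 0 members, with 1 at an unadjusted p under 0.05, beside 12.4% of all genes at that unadjusted threshold. There 0.785% of all genes were called lower, 0.231% higher and 1.02% in either direction. Between 11 and 8 days edgeR called 0 members and 0.00372% of all genes. At the unadjusted threshold it counted 0 members, beside 9.63% of all genes. In the F test over the 4 groups, Idh2 (adjusted p = 0.00214 from edgeR) and Suclg1 (0.0497) passed, beside 13% of all genes. Without saline B, 6 members passed, and without any of saline A or D, 4-day A or D, 8-day A or C, or 11-day B, C or D, 1 member passed. Without 4-day B or without 8-day B, 3 members passed. The share of 13% belongs to the fit of every library. Shares of all genes in the fits with a library left out are not given, so these counts cannot be read as particular to the members.

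Markers of other cells moved in the same hearts. By edgeR, at 4 days 9 of 9 fibroblast markers were higher, at 8 days 5 and at 11 days 2, and their summed level was 392.2 to 513.8 CPM in saline libraries, 1270 to 4895 at 4 days, 665.6 to 1360 at 8 days and 522.7 to 1099 at 11 days. Of 9 macrophage markers edgeR called 8 higher at 4 days, 0 at 8 days (2 at an unadjusted p under 0.05, and 1 by DESeq2) and 1 at 11 days, with sums of 106.6 to 174.9 CPM in saline and 210.8 to 350.2 CPM at 4 days. Cardiomyocyte markers went both ways by edgeR, with 3 of 12 lower and 2 higher at 4 days and 1 lower at 8 and at 11 days. The 8 endothelial markers and the 3 adipocyte markers tested were not called at any time by edgeR, DESeq2 or limma voom, with 0, 1 and 1 of the former and 0 of the latter at an unadjusted edgeR p under 0.05. Of 4 erythroid markers edgeR called 2 lower at 4 and at 11 days, while DESeq2 called 0, 1 and 1 lower and limma voom 3, 0 and 0 at the 3 times. Of 7 smooth muscle and pericyte markers 1 was lower at 4 days by edgeR, where DESeq2 also called 1 higher and limma voom 2, and of 6 lymphocyte markers, whose sum was at most 1.546 CPM in any library, 1 was lower at 11 days by edgeR. The part of these shifts in the members' values was not tested.

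Isoproterenol acts through cyclic AMP, whose response element (CRE) binds factors of the CREB family, and the promoter windows of the members were searched for it. RefSeq windows (GRCm38.p6) of 300 bases around the gene start were at hand for 8 of the 9 members. TGACGTCA, the full CRE, was found on either strand in 1.79% of 32851 windows of all genes, and among the members in those of Ogdh and Mdh2. The percents given here are per window, while a member counted with a match in any of its windows. A gene with several windows, as Ogdh with 6, had more places for a match, so the 2 are not on the same scale. The element of the estrogen-related receptors, TNAAGGTCA, was found in 1.28% of all windows and in none of the members. CCGGAAGT, bound by ETS factors, was found in 3.89% and in none of the members, and the NRF1 motif in 4.6% and in Sucla2. No member window held more than 1 of these motifs. Shown, in the direction of the gene, are the bases before the gene start of Idh2, the member called lower at 4 days, at chr7:80115393-80115600 on the minus strand, and of Ogdh, which holds the CRE (in capitals), at chr11:6291347-6291596 on the plus strand.
Idh2: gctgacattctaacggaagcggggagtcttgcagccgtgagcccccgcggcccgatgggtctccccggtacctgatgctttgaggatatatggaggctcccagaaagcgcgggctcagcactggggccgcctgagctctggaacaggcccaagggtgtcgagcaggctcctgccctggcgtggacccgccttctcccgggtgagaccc
Ogdh: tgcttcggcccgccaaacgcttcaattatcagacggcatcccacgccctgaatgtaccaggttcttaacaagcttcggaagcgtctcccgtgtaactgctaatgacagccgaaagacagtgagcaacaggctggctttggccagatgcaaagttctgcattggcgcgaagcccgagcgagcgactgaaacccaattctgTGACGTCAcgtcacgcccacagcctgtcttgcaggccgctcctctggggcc
The CRE began 51 bases before the RefSeq gene start of Ogdh, in 3 of the 6 windows of this gene. In Mdh2 it began 127 bases before the RefSeq gene start. GENCODE places the start of Mdh2 further upstream, so this match lies inside the gene as GENCODE lists it. Ogdh and Mdh2 were without a call against saline at any time by edgeR with TMM, and DESeq2 called both lower at 11 days. A match describes the letters, and no binding was measured in these hearts.

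The NAD-dependent isocitrate dehydrogenase, a multimer whose catalytic subunit is Idh3a and whose other subunits are Idh3b and Idh3g, was measured through Idh3a and Idh3b. Idh3a (chr9:54586334-54604661) did not share the downward values of the others at 4 days. It stood at 160.5, 137.4, 185.4 and 183.5 CPM in the saline libraries and at 180.4, 191.9, 155.5 and 203.6 CPM at 4 days. It stood at 205.3, 169.5 and 152 CPM at 8 days and at 161.4, 163.2, 155.2 and 157 CPM at 11 days. All groups overlapped with saline, and the 11-day libraries were the closest together. Its log2 fold change was 0.14 (95% interval -0.11 to 0.38) at 4 days, 0.07 (-0.21 to 0.35) at 8 days and -0.07 (-0.27 to 0.12) at 11 days, and the value at 8 days was -0.075 without 8-day A. Library size alone turned the last 2 of these to -0.03 and 0.01.

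Idh3b (chr2:130279309-130284547, minus strand) went the other way at 4 days. Its CPM was 285.9, 227.6, 222.7 and 295.9 in saline and 183.7, 231.1, 184.3 and 200.5 at 4 days, so that 4-day B alone lay within the saline range. At 8 days it was 203.8, 247 and 205.7 CPM, and at 11 days 253.7, 251.7, 223.9 and 244.3 CPM, within the saline range in all 4 libraries. The log2 fold change was -0.36 at 4 days (SE 0.114, edgeR adjusted p = 0.064), -0.24 at 8 days (-0.21 without 8-day A) and -0.09 at 11 days. DESeq2 gave an adjusted p = 0.0227 at 4 days.

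Citrate synthase (Cs, chr10:128337734-128362479), which joins acetyl-CoA to oxaloacetate and is widely used as a measure of mitochondrial content, had lower values at each time. Its CPM was 517.4, 420.9, 527.4 and 540.8 in saline, 424.5, 472, 398.4 and 454.2 at 4 days, 444.3, 414.6 and 393.3 at 8 days, and 419.5, 391.8, 379.2 and 425 at 11 days. Saline B lay among the isoproterenol libraries, and the other saline libraries lay above all of them. The log2 fold change was -0.19 (adjusted p = 0.285 from edgeR) at 4 days, -0.27 (SE 0.110, 0.298; -0.33 without 8-day A) at 8 days and -0.32 (SE 0.088, 0.0628) at 11 days. With library size alone the value at 4 days was 0.01. At 11 days Cs passed the threshold without saline B (adjusted p = 0.00735 from edgeR) and by DESeq2 (0.00701).

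Ogdh (chr11:6291633-6356642), the catalytic first component of the 2-oxoglutarate dehydrogenase complex, had its lowest mean at 11 days. It stood at 945, 844.5, 1034 and 1047 CPM in saline and at 824.1, 819.8, 871.4 and 832.2 CPM at 4 days. It stood at 836.4, 864.7 and 930 CPM at 8 days and at 837.7, 755, 737.6 and 826 CPM at 11 days. All 11-day libraries lay below all saline libraries, and the other groups overlapped with saline. The log2 fold change at 11 days was -0.30 (SE 0.087, edgeR adjusted p = 0.0759), after -0.21 (0.211) at 4 days and -0.15 (0.634, and -0.13 without 8-day A) at 8 days, and with library size alone the 4-day value was 0.01.

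Succinyl-CoA ligase, the step of the cycle that forms ATP or GTP directly, pairs the α subunit Suclg1 with the β subunit Sucla2 (ATP-forming) or Suclg2 (GTP-forming). Suclg1 (chr6:73248382-73276911) stood at 113.6, 101.9, 111.6 and 139.2 CPM in saline and at 103, 112.6, 93.75 and 104.6 CPM at 4 days. It stood at 84.35, 99.65 and 85.6 CPM at 8 days and at 101.3, 98.7, 90.4 and 94.2 CPM at 11 days. The 8-day and the 11-day libraries lay below all saline libraries, at 11 days by a margin of 101.3 against 101.9 CPM. The log2 fold change was -0.17 (adjusted p = 0.375 from edgeR) at 4 days, -0.38 (SE 0.114, 0.12; -0.35 without 8-day A) at 8 days and -0.28 (SE 0.091, 0.11) at 11 days, and with library size alone the 4-day value was 0.05. Sucla2 (chr14:73525319-73596142) overlapped with saline at each time. It ranged from 230.6 to 318.1 CPM in saline, 194.9 to 271 at 4 days, 222.9 to 284.3 at 8 days and 247.8 to 282.1 at 11 days. Its log2 fold changes were -0.24, -0.14 and -0.07 (adjusted p = 0.289, 0.699 and 0.783 from edgeR), the second of them -0.13 without 8-day A and the last 0.01 with library size alone.

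Fh1, fumarase (chr1:175600374-175625635, minus strand), and Mdh2, the mitochondrial malate dehydrogenase (chr5:135778480-135790398), close the cycle. Fh1 ranged from 102.2 to 142.2 CPM in saline, 90.79 to 113.1 at 4 days, 100.9 to 113.7 at 8 days and 109 to 119.6 at 11 days. Its log2 fold change was -0.31 (SE 0.108, edgeR adjusted p = 0.0995) at 4 days, -0.21 (0.47, and -0.26 without 8-day A) at 8 days and -0.14 (0.511) at 11 days, so its mean was lowest at 4 days. Mdh2 had its lowest mean at 11 days instead. It stood at 241.1, 259.8, 313 and 361.1 CPM in saline and at 240.1, 224.6, 210.7 and 243.7 CPM at 11 days, where saline A lay within the 11-day range. Its log2 fold change was -0.10 (adjusted p = 0.694 from edgeR) at 4 days, -0.21 (0.563, and -0.15 without 8-day A) at 8 days and -0.36 (SE 0.112, 0.0989) at 11 days, and with library size alone the 4-day value was 0.12.

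Ratios of FPKM within a library do not depend on the scaling between libraries. They described how unevenly the members moved, and 8 ratios were compared with saline at each time by the exact two-sided permutation test, whose smallest possible p is 0.0286 for these group sizes, with adjustment over the 24 tests. None passed after adjustment, the lowest adjusted p of the exact test being 0.137. With so few hearts, a few ratios at the smallest possible p cannot pass adjustment over 24 tests. The ratios are therefore given as a description. The ratio of Idh2 to Idh3a was 3.97 to 5.21 in saline libraries, 2.09 to 3.11 at 4 days, 2.7 to 3.87 at 8 days and 3.93 to 4.46 at 11 days. At 4 and 8 days all ratios lay below all saline ratios, by a mean of -0.85 and -0.48 on the log2 scale (exact permutation p = 0.0286 and 0.0571, the second -0.33 without 8-day A). At 11 days the ranges overlapped, with a mean difference of -0.18 (exact permutation p = 0.0857).

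Within the Idh3 enzyme, RNA of the α subunit gene stood higher against its partners at 4 days. This RNA counts all transcripts of Idh3a, among them those that GENCODE lists as retained intron or nonsense-mediated decay. Ratios of the coding transcripts alone were not computed. The ratio of Idh3a to Idh3b was 0.323 to 0.481 in saline and 0.491 to 0.612 at 4 days, and that of Idh3a to Idh3g was 0.662 to 0.892 in saline and 1.03 to 1.21 at 4 days. Neither overlapped with saline at 4 days, with log2 differences of 0.55 and 0.51 (exact permutation p = 0.0286 for each, adjusted 0.137). At 8 days the ratio to Idh3b was 0.403 to 0.575 and the ratio to Idh3g 0.813 to 1.04, and at 11 days they were 0.363 to 0.405 and 0.723 to 0.756, each overlapping with saline. With expected counts in place of FPKM, the ratio of Idh3a to Idh3b overlapped with saline at 4 days (log2 difference 0.50, exact permutation p = 0.0571), and that of Idh3a to Idh3g did not. In the ligase, the ratio of Suclg1 to Sucla2 was 0.513 to 0.604 in saline, 0.544 to 0.612 at 4 days, 0.421 to 0.501 at 8 days and 0.466 to 0.486 at 11 days. It lay below all saline ratios at 8 and 11 days (log2 differences -0.31 and -0.23, exact permutation p = 0.0286 for each, adjusted 0.137) and overlapped with them at 4 days. Without 8-day A the first of these differences was -0.275.

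The other ratios overlapped with saline at each time in FPKM. With expected counts, Sucla2 to Suclg2 lay above all saline ratios at 4 and 8 days (log2 differences 0.32 and 0.28) and Ogdh to Dlst below them at 4 days (-0.24), each with an exact permutation p = 0.0286. Ogdh to Dlst, the second component of the same complex, was 2.66 to 2.78 in saline, 2.15 to 2.68 at 4 days, 2.52 to 2.99 at 8 days and 2.54 to 2.69 at 11 days. Ogdh to Cs was 1.33 to 1.46 in saline and 1.39 to 1.44 at 11 days. Mdh2 to the cytosolic Mdh1 was 0.405 to 0.618 in saline and 0.457 to 0.545 at 11 days. Sucla2 to Suclg2 was 3.1 to 4.31 in saline and reached 5.8 in 8-day A.

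**Figure D3:**
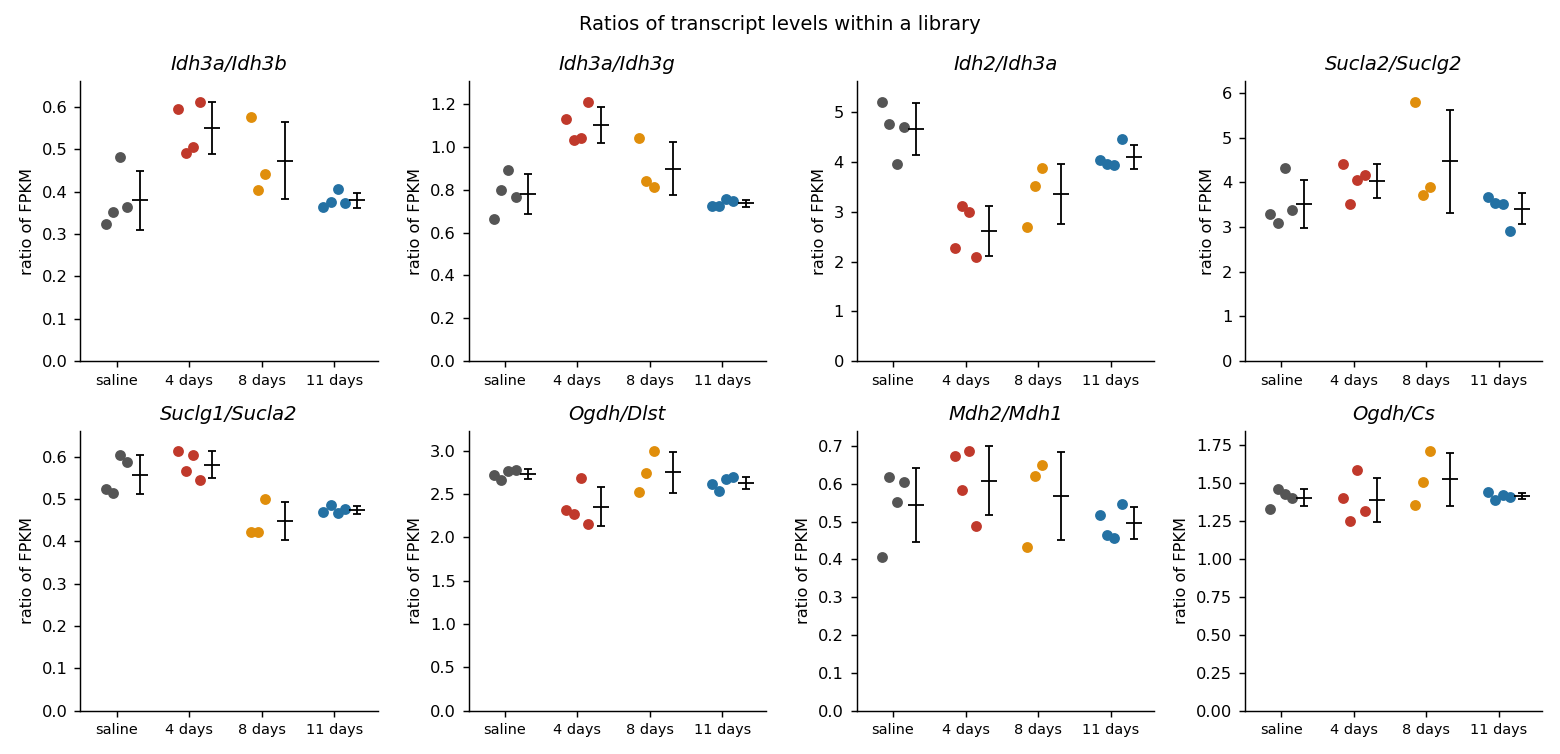
Ratio of the FPKM of 2 genes within each library (vertical axes, from 0) for 8 pairs of TCA cycle genes, with 1 point per heart and the group mean ± SD beside the points. The ratio of Idh2 to Idh3a is lowest at 4 days, at 2.09 to 3.11 against 3.97 to 5.21 in saline, and the ratios of Idh3a to Idh3b and to Idh3g are highest there.

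The remaining genes of the cycle, 11 in number, were read beside the members. By edgeR, 3 of them were lower at 4 days, 2 at 8 days (1 without 8-day A) and 1 at 11 days, and none was higher at any time. DESeq2 and limma voom each called 6, 3 and 2 lower. Their median log2 fold change was -0.31, -0.16 and -0.12, and 10, 11 and 10 of the 11 values were below 0. Ogdhl, a paralog of Ogdh, stood out among them. It decreased by 58.4% at 4 days, 48.0% at 8 days and 52.1% at 11 days (log2 fold changes -1.27, -0.94 and -1.06, adjusted p = 0.000111, 0.000505 and 0.000229 from edgeR), from 66.95 to 71.47 CPM in saline libraries to 21.54 to 34.75, 30.66 to 41.55 and 27.49 to 41.78 CPM. Per length it was far below Ogdh, at 20.9 ± 2.70 FPKM in saline (SD, n = 4), against 245 ± 22.7. Without 8-day A its log2 fold change at 8 days was -0.96 (0.00412 from edgeR). On FPKM its call at 8 days was lost (adjusted p = 0.22 from limma), where limma called 0 of all 26862 genes. How RSEM divided any reads that fit both paralogs was not tested.

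Suclg2, the GTP-forming β subunit, was lower at 4 days with a log2 fold change of -0.56 (SE 0.102, edgeR adjusted p = 0.00349), from 73.53 to 86.07 CPM in saline to 45.96 to 63.59 CPM. The call at 4 days was lost with effective lengths as offsets (adjusted p = 0.183 from edgeR) and on FPKM (0.527 from limma), and it held with library size alone (0.0395 from edgeR). At 8 days the log2 fold change was -0.41 (0.0486 from edgeR; -0.49 without 8-day A), a call that ended without any single library other than saline B, at 0.0551 to 0.247. Sdha, the flavoprotein subunit of succinate dehydrogenase, which is also complex II of the respiratory chain, was lower at 4 days with a log2 fold change of -0.36 (edgeR adjusted p = 0.0423), from 507.6 to 702.3 CPM to 456.8 to 509.8 CPM. That call was lost with effective lengths as offsets (0.0577), with library size alone (0.402), and when any single library other than saline B or 4-day B was left out (0.0801 to 0.122).

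Of the genes without an edgeR call against saline, Idh3g was at -0.34, -0.13 and -0.002 on the log2 scale at 4, 8 and 11 days. Sdhb was at -0.24, -0.17 and -0.02, Sdhc at -0.35, -0.48 and -0.12, and Sdhd at -0.10, -0.16 and -0.07. Dlst was at 0.04, -0.15 and -0.26, Dld, which the pyruvate dehydrogenase complex shares, at -0.08, -0.16 and -0.16, and Mrps36, a small subunit of the 2-oxoglutarate dehydrogenase complex, at -0.02, -0.03 and 0.03. In the F test over the groups Suclg2, Ogdhl, Sdha, Sdhc, Dlst and Idh3g passed (adjusted p = 0.00139, 2.14e-05, 0.0444, 0.0236, 0.0385 and 0.0456 from edgeR).

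The cytosolic enzymes that catalyse the same or a linked reaction were not called at any time by edgeR. At an unadjusted p under 0.05 edgeR counted 0, 2 and 1 of the 4 at 4, 8 and 11 days, and DESeq2 called 1 of them, lower, at 8 days and none at 4 or 11 days. Mdh1 was at -0.27, -0.38 and -0.10 on the log2 scale and Idh1 at 0.08, 0.28 and 0.20. Aco1 was at 0.06, -0.03 and -0.01, and Acly, which splits exported citrate, at 0.03, -0.04 and -0.12. Their levels differed widely per length, with Mdh1 at 472 ± 62.5 FPKM in saline, Idh1 at 11.4 ± 0.641, Aco1 at 5.62 ± 0.402 and Acly at 5.53 ± 1.35 (SD, n = 4).

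Fatty acid oxidation, which delivers acetyl-CoA to the cycle, differed from the members in how many of its genes passed. Of 18 genes, 18 were lower at 4 days, 12 at 8 days and 13 at 11 days, with medians of -0.68, -0.55 and -0.44. The count at 11 days was 4 without 11-day B or without 11-day C and 8 without saline A, the count at 8 days was 6 without 8-day C, and FPKM gave 9, 0 and 0 by limma. Ech1, an isomerase of unsaturated fatty acids, had log2 fold changes of -1.24, -1.10 and -0.79 (edgeR adjusted p = 0.000357, 0.00222 and 0.0024). Hadhb (-0.95, -0.69 and -0.55) and Hadha (-0.86, -0.80 and -0.60), the subunits of the trifunctional protein, and the carnitine enzyme Cpt2 (-0.81, -0.77 and -0.68) were called lower at each time. The difference between the lists was not tested.

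Of the 13 protein-coding genes of the mitochondrial genome, which encode parts of the respiratory chain, edgeR called 0 at each time, with 4, 1 and 2 at an unadjusted p under 0.05, and DESeq2 called 1, 0 and 1. Their medians were -0.25, 0.003 and 0.12. Of 18 genes that feed or drain the cycle, 3 were lower and 4 higher at 4 days, and 1 was lower at 8 and at 11 days. Me1, the cytosolic malic enzyme, was lower at each time (-0.64, -0.75 and -0.69, adjusted p = 0.000445, 0.00152 and 0.000503 from edgeR), and Me3, a mitochondrial malic enzyme, at 4 days (-0.42, 0.0101). Abat and Pck2 were higher at 4 days (0.82 and 0.50, adjusted p = 0.00325 and 0.0112 from edgeR). Of 16 regulators and assembly factors, Ppargc1b, a coactivator of mitochondrial genes, was lower at 4 days (-0.36, adjusted p = 0.0202 from edgeR) and 11 days (-0.67, 0.00868), and edgeR called no other. DESeq2 called 3 of the 16 lower at 4 days, 1 at 8 days and 1 at 11 days. The list went both ways, with 10, 10 and 6 of the 16 values below 0 and medians of -0.085, -0.061 and 0.059 at the 3 times.

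**Figure D4:**
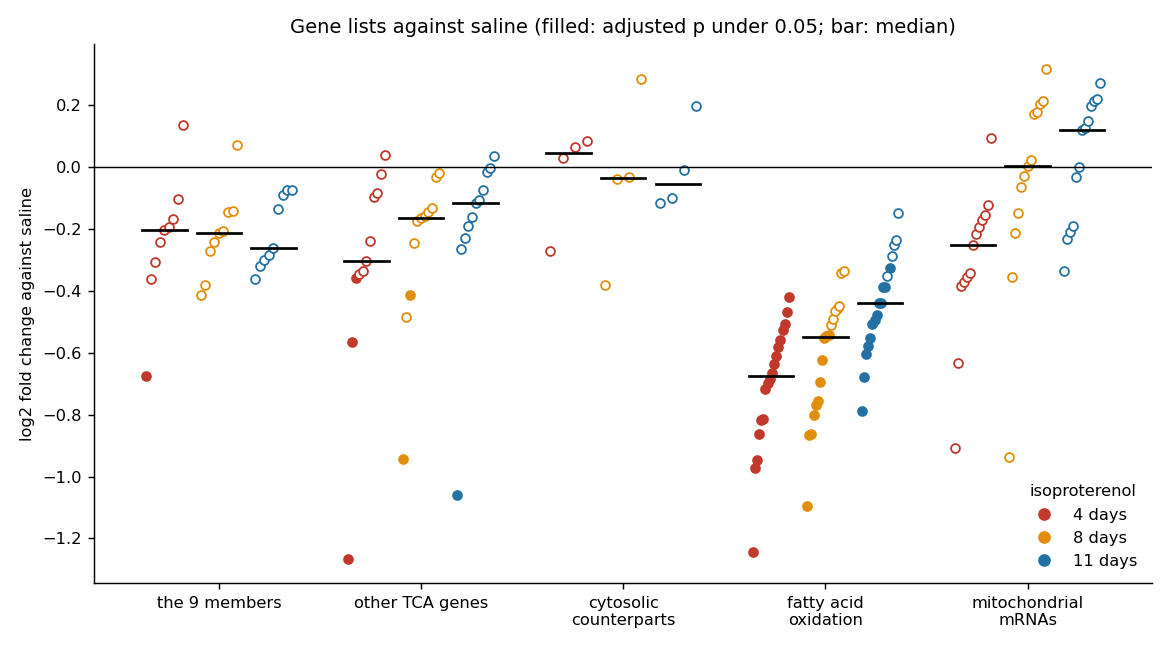
Log2 fold change against saline (vertical axis) of every tested gene of 5 lists at 4, 8 and 11 days, with filled points for adjusted p under 0.05 by edgeR and a bar at each median. The members' medians lie between -0.21 and -0.26, and those of the 18 fatty acid oxidation genes between -0.44 and -0.68.

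Over the 15 libraries, the member most like the rest was Fh1 and the least like them was Idh3a. The correlation (Pearson r of log2 CPM) with the mean of the other 8 was 0.873 for Fh1, 0.812 for Cs, 0.795 for Suclg1, 0.740 for Idh3b, 0.682 for Idh2, 0.676 for Sucla2, 0.624 for Ogdh, 0.440 for Mdh2 and 0.122 for Idh3a. Among pairs, r ran from -0.247 (Idh2 and Idh3a) to 0.914 (Idh3b and Sucla2). The 5 genes outside the list whose levels were most like the members' mean, among 8531 genes with a mean of at least 5 CPM, were Sdha (r = 0.944), Pdpr (0.936), Map3k20 (0.926), Mrps35 (0.921) and Vdac1 (0.921). These values describe 15 libraries that share their groups and scaling.

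The isoform tables described which transcripts carried the members' counts. Cs-201 held 99.5% of the counts of Cs in saline, Idh2-201 98.0%, Suclg1-201 95.8%, Idh3b-205 (a transcript not listed in GENCODE M21) 94.6%, Ogdh-201 85.8% and Fh1-201 84.7%, as means of 4 libraries. Sucla2 was split between Sucla2-203 (50.7 ± 5.68%, SD) and Sucla2-201 (48.9 ± 5.72%). Mdh2 was split between the coding Mdh2-201 (55.6 ± 5.8%) and Mdh2-203 (44.1 ± 5.82%), which GENCODE lists as a target of nonsense-mediated decay. Idh3a was spread over the coding Idh3a-201 (34.5 ± 4.60%) and Idh3a-205 (24.5 ± 4.55%) and over Idh3a-203, a transcript with a retained intron (34.9 ± 0.746%). At 4 days, where Idh2 was lowest, Idh2-201 held 97.3 ± 0.626% of its counts (SD, n = 4). Of the counts of Idh3a at 4 days, Idh3a-203 held 37.7 ± 2.36%, Idh3a-201 29.5 ± 2.56% and Idh3a-205 22.9 ± 2.47%. Idh3a-204, which GENCODE lists as a target of nonsense-mediated decay, held 4.41 ± 1.83% in saline and 8.47 ± 2.68% at 4 days. Its ranges overlapped, at 2.55 to 6.25% and 4.78 to 11.2%. Idh3b-205 held 92.7 ± 0.675% at 4 days, with 92.0 to 93.4% in single libraries against 94.0 to 95.1% in saline, while the minor Idh3b-201 held 5.10 to 6.67% against 3.57 to 4.28%. These shares are RSEM estimates, described here without a test.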

How the data were processed

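RNA of 15 ventricle samples was sequenced as total RNA libraries (TruSeq kit). Per the submitters' processing notes, the authors used cutadapt 4.1, HISAT2 2.2.1, RSEM 1.3.3 and the build GRCm38.p6. Deposited by the authors were, for each gene and transcript, expected counts (estimated counts without normalization) and FPKM, which RSEM scaled by effective length and library total. The authors also deposited effective lengths, used as offsets in an alternative, and for each transcript its percent of the gene, which was not used, since shares were computed from the expected counts. No source used here gives the strand setting. Per the study's methods, 1 further 8-day library was left out by the authors for its quality.

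Counts were rounded to whole numbers, and 26862 genes that summed to 10 or more over the 15 libraries were tested. Each isoproterenol group was fitted with saline alone in edgeR 4.0.16 under R 4.3.3 (quasi-likelihood, TMM, two-sided), with Benjamini-Hochberg adjustment over all genes and a threshold of 0.05. The times were compared in a fit of all groups. A standard error is the size of the log2 fold change divided by the square root of F. FPKM was tested as log2(FPKM + 1) with limma 3.58.1, and DESeq2 1.42.0 and limma voom were alternatives, beside other scalings, filters, offsets and libraries left out. The edgeR tests of each time against saline were checked on simulated counts, with changes larger than any measured here for a member. The other tests were not checked in this way.

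The members and lists were chosen with earlier results of these data known. Named were all members, all other TCA genes but 1, whose values are not reported here, all cytosolic genes, at most 4 genes with the smallest p of each other pathway list, and the 5 genes most like the members. Locations and transcript types came from GENCODE M21, where 55141 of the 55401 gene identifiers were found. The study's methods describe replicate hearts, and each library was taken as 1 heart. No pair of libraries of a group agreed within sampling noise. The labels give no batch. Depth ranged from 25404162 to 117777005 expected counts, and the number of libraries limits the precision.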

Additional observations from a re-analysis of the deposited data

Results flagged for a closer look

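Idh2 differed between 2 isoproterenol groups. Its log2 difference of 11 over 4 days was 0.422 (SE 0.109, adjusted p = 0.0214 from edgeR). Every 11-day library (505.8 to 582.3 CPM) lay above every 4-day library (346.6 to 501.6 CPM), the nearest at 505.8 against 501.6 CPM. How many of all genes were separated in this way between these groups was not counted. The difference was 0.353 to 0.548 with a library left out, and 0.293 with library size alone. Of the 27 sets of 4 libraries (each member in saline, 4-day and 11-day hearts), 0 had a library past Dixon's 95% limit, and groups of 3 were not examined.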

How the results depend on the processing

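Across 585 recomputed fold changes of the members against saline, 528 kept their direction and side of the threshold, 32 came past it, 2 lost it and 23 changed sign. The 2 losses were Idh2 at 4 days on FPKM, at -0.464 and -0.465 with a pseudocount of 1 and 0.1. The Idh2 difference of 11 over 4 days also lost its call with library size only, on FPKM and without 5 of the single libraries. Members called lower at 4, 8 and 11 days numbered 3, 2 and 4 with DESeq2 and 3, 1 and 2 with limma voom with quality weights. Robust dispersions gave 2, 1 and 1, and all groups in one fit gave 3 and 1 at 4 and 8 days. All genes called in either direction numbered 2540, 610 and 1006 in the main fits. DESeq2 called 3102, 978 and 1624 and limma voom 3101, 681 and 1103. Robust dispersions called 2614, 735 and 1094, and the fit of all groups 3232, 964 and 1079. No filter on low counts gave 2 at 4 days, with 2763 of 33783 genes called. FPKM gave 0 at 4 days with a pseudocount of 1 or 0.1, with 834 and 1005 of 26862 genes called. Library size only, with the mitochondrial genome, CT010467.1 and Lars2 left out, gave 2 at 11 days, with 875 of 26837 genes called. It gave 4 over the 4 groups and 2 for 11 against 4 days. Over the 4 groups, 1 member passed with DESeq2 size factors and 0 with library size only or FPKM, and for 11 against 4 days both of the latter gave 0. With 1 library left out, members lower ranged from 1 to 3, 0 to 2 and 0 to 4 at 4, 8 and 11 days. In these fits, all genes called against saline ranged from 1387 to 2973, 259 to 912 and 527 to 1422 at the 3 times. Members called over the 4 groups ranged from 1 to 6. Those called between 8 and 4 days ranged from 0 to 1, and between 11 and 4 days from 0 to 2. For the tests over the 4 groups and between times, the matching numbers of all genes in each setting are not given.

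With library size only, signs turned for Cs (0.012), Ogdh (0.007), Suclg1 (0.047) and Mdh2 (0.119) at 4 days, Idh3a at 8 (-0.031) and 11 days (0.010) and Sucla2 at 11 days (0.014). On FPKM they turned for Cs (0.015), Suclg1 (0.037) and Mdh2 (0.097) at 4 days, Idh3a at 8 (-0.009) and 11 days (0.009), Sucla2 at 11 days (0.035) and Suclg2 at 11 days (0.073 and 0.075). Both use totals that include mitochondrial ribosomal RNA. Values with 1 library left out ran from -0.187 to 0.004 for Mdh2 at 4 days, -0.075 to 0.164 for Idh3a at 8 days and -0.147 to 0.014 for Sucla2 at 11 days. Of 208 recomputed ratio differences 17 changed sign. None passed, an outcome that the smallest possible p of the exact test largely set in advance. With counts in place of FPKM, Sucla2/Suclg2 at 11 days was 0.125 and Ogdh/Dlst at 8 days -0.00048. With 1 library left out, differences that turned ran from -0.061 to 0.13 (Idh3a/Idh3b, 11 days), -0.097 to 0.061 (Sucla2/Suclg2, 11 days), -0.056 to 0.066 (Ogdh/Dlst, 8 days), -0.079 to 0.24 (Mdh2/Mdh1, 8 days), and -0.084 to 0.032 and -0.015 to 0.031 (Ogdh/Cs, 4 and 11 days). The cause of these changes was not tested.

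Samples that shared a letter did not deviate together (correlation -0.419 to 0.435, median -0.046, over 21 pairs), so letters were not taken as pairs. With the letter as a replicate block, Idh2 at 4 days was -0.681 (adjusted p = 0.0118 from edgeR), 1 member passed over the 4 groups in place of 2, and Sdha at 4 days (0.0877) and Suclg2 at 8 days (0.0863) lost their calls.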
